A study of Mus musculus with 6 samples.

Results

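The genes described here are 10 transcripts that mark antigen-presenting and border macrophages, picked by name from the 55471 genes of a hippocampal RNA-seq table. The class II group held Cd74, H2-Aa, H2-Ab1 and H2-Eb1, and the border macrophage group held Mrc1, Cd163, Lyve1, Pf4, F13a1 and Ms4a7. All 10 were detected in all 6 libraries, with 6 to 149 reads each, and all 10 were among the 32773 genes that received a p. In the p300-ifKO mice, 0 of the 10 passed an adjusted p of 0.05, against 0.0061% of all genes with a p. For 0 of the 10 were the groups free of overlap, against 6.64% of all genes with a p. The levels of the 10 genes varied up to 6.62-fold between mice. The 4 class II genes followed nearly the same order of mice.

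Hippocampal total RNA was sequenced from 3 p300-ifKO mice and 3 control littermates, 1 male mouse per library, all on a C57BL/6 background (C57BL/6J in the methods). The ifKO (inducible forebrain knockout) mice carried floxed Ep300, the gene for the lysine acetyltransferase p300, together with a Camk2a-creERT2 transgene, which is active in excitatory neurons of the forebrain and not in macrophages. Mice were 3 to 6 months old, and both groups received 5 administrations of tamoxifen at 20 mg/mL in corn oil. The protocol describes the controls as littermates without creERT2, although the description of their libraries names the driver.

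Esr1, part of which is built into creERT2, was listed at 102 ± 12.5 (SD, n = 3) normalized counts for controls against 3167 ± 937 (SD, n = 3) for p300-ifKO mice (log2 fold change 4.96, adjusted p 4.47e-92 in DESeq2). Ep300 had 1545, 1474 and 2334 normalized counts in control 1 to 3 and 478, 1350 and 912 in p300-ifKO 1 to 3, so the groups did not overlap. Its log2 fold change was -0.97 (SE 0.33) with an adjusted p of 0.991 in DESeq2. Of all genes, 2 passed the threshold, a share of 0.0061%, both higher: Esr1 and Arsi, a gene carried by the driver transgene that lies 99.1 kb from Cd74 on chromosome 18. Without p300-ifKO 2, the knockout with the highest Ep300 value and the only one with a positive length correlation (given below), the count was 938 genes. Total counts were between 23151568 and 28433823 per library. The libraries also differed in a trend with gene length: the Spearman correlation between a gene's deviation from its mean over libraries and its exonic length, over 17070 genes, was 0.18, 0.16 and 0.41 in control 1 to 3 and -0.50, 0.41 and -0.28 in p300-ifKO 1 to 3.

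MHC class II molecules display peptides from the endosome to CD4+ T cells. They are pairs of an alpha and a beta chain that are guided to the endosome by the invariant chain, and their genes are switched on together by the coactivator CIITA, which docks on the RFX, CREB and NF-Y factors bound at a shared promoter module. In the healthy brain this program is largely a property of cells at its borders, in the meninges, the perivascular space and the choroid plexus, and parenchymal microglia express little of it. Macrophages of these borders are told from microglia by scavenger and adhesion receptors such as the mannose receptor, CD163 and LYVE1. Excitatory neurons, in which Ep300 was targeted, are not known as a source of these transcripts. In bulk tissue, fewer cells of a type and less RNA per cell cannot be told apart.

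The promoter module can be read in the sequences of the class II genes below. Whether it relates to the joint movement of the class II members between mice was not tested. The sequences are RefSeq promoters on GRCm38.p6, written on the strand of the gene from 110 to 31 bases before its start. Capitals mark GCAAC, the core of the X box bound by RFX, and GATTGG, the Y box bound by NF-Y.
H2-Aa, chr17:34287854-34287933, minus strand: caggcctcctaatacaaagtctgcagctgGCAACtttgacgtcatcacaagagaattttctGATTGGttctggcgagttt
H2-Eb1, chr17:34305757-34305836, plus strand: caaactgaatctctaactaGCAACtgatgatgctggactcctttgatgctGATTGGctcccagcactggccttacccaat
H2-Oa, chr17:34092269-34092348, plus strand: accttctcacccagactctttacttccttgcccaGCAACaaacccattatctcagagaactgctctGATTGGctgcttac
H2-Ob, chr17:34238795-34238874, plus strand: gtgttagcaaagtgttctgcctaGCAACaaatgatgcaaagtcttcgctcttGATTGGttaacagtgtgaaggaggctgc
Cd163, chr6:124304541-124304620, plus strand: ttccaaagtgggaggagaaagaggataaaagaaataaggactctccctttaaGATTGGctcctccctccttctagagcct
Mrc1, chr2:14229304-14229383, plus strand: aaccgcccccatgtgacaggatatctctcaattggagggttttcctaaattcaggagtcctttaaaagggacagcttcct

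In H2-Aa the X core began 81 bases and the Y box 49 bases before the start, and in H2-Eb1 they began 91 and 60 bases before it. H2-Oa and H2-Ob, which encode the chains of a modulator of class II peptide loading, carried the same pair. Promoters of 7 of the 10 members were matched by symbol. H2-Ab1 and Lyve1 had no entry, and promoters on chromosome 18, where Cd74 lies, were left out of the search of these genes. The pair was sought in this order on either strand within 250 bases of the start, with the starts 28 to 33 bases apart. It was found in 2 of the 2 class II members searched and in 0 of the 5 border macrophage members searched. The distance range was set after these promoters had been seen. Among all 32851 promoters, 29.9% held GCAAC, 14.6% held GATTGG and 0.107% held the pair. Of the class II processing and loading genes described below, 3 of 9 held it (H2-Oa, H2-Ob and H2-Eb2), and of the class II transcription factors 0 of 7. Cd163 held a GATTGG without the pair, and Mrc1 held neither motif. A match of letters is a description and not a measured binding site.

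The 3 class II chain genes are neighbours on chromosome 17 (GRCm38): H2-Ab1 at 34257689 to 34269419, H2-Aa at 34282744 to 34287823 and H2-Eb1 at 34305867 to 34316674, with 13.3 and 18.0 kb between them. Cd74 lies apart from them on chromosome 18, at 60803848 to 60812652. The border macrophage genes are on 6 chromosomes: Mrc1 on 2 (14229392 to 14332057), Cd163 on 6 (124304656 to 124330527), Lyve1 on 7 (110850607 to 110863239), Pf4 on 5 (90772435 to 90773383), F13a1 on 13 (36867178 to 37050244) and Ms4a7 on 19 (11321039 to 11336146). All values below are normalized counts, that is reads divided by the size factor of the library, and the comparison is the two-sided Wald test of DESeq2 over all genes.

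Cd74, the invariant chain, had 61.6, 35.7 and 152 normalized counts in control 1 to 3 and 139, 38.0 and 130 in p300-ifKO 1 to 3. Both groups thus held low and high mice, and control 3 was above all 3 knockouts. Control mice averaged 83.1 ± 61.1 (SD, n = 3) and knockouts 102 ± 55.8 (SD, n = 3), a log2 fold change of 0.30 (SE 0.56, 95% interval -0.80 to 1.39), and DESeq2 gave an adjusted p of 0.991 (0.596 unadjusted). On the linear scale the interval ran from 0.575-fold to 2.62-fold. The adjusted p was 0.991 for each of the 10 members.

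H2-Aa, the alpha chain of the A molecule, had 25.9, 11.6 and 76.5 normalized counts in control 1 to 3 and 75.2, 14.1 and 63.6 in p300-ifKO 1 to 3. Control 2 and p300-ifKO 2 were the lowest mice, and control 3 and p300-ifKO 1 were nearly level at the top. The log2 fold change was 0.42 (SE 0.70, 95% interval -0.95 to 1.79), and DESeq2 gave an unadjusted p of 0.547. H2-Ab1, the beta chain that pairs with it, had 31.8, 10.5 and 50.0 normalized counts in the controls and 60.1, 13.3 and 36.6 in the knockouts. Here p300-ifKO 1 was the highest mouse, and control 2 was again the lowest. Its log2 fold change was 0.25 (SE 0.64, 95% interval -1.01 to 1.50), and DESeq2 gave an unadjusted p of 0.699.

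H2-Eb1, the beta chain of the E molecule, had 23.9, 21.0 and 73.5 normalized counts in control 1 to 3 and 53.7, 21.2 and 56.9 in p300-ifKO 1 to 3. Control 1, control 2 and p300-ifKO 2 were low and close together, and the groups overlapped. The log2 fold change was 0.15 (SE 0.56, 95% interval -0.95 to 1.26), and DESeq2 gave an unadjusted p of 0.788. C57BL/6 mice carry a promoter deletion in the E alpha gene and do not make its chain, so that H2-Eb1 transcripts are made without their partner. In these libraries that gene, annotated as H2-Ea-ps, had 1 read in control 3 and 0 reads in the other 5 libraries.

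In all 4 class II genes the 3 highest mice were control 3, p300-ifKO 1 and p300-ifKO 3, and the order below them was control 1, p300-ifKO 2 and control 2. Control 3 was the highest in 3 of the 4 genes, and control 2 was the lowest in 4 of 4. The summed class II level was 143, 78.8 and 352 normalized counts in control 1 to 3 and 328, 86.6 and 287 in p300-ifKO 1 to 3. This spread was beyond the counting error of single libraries: for Cd74 the exact 95% Poisson interval was 24.7 to 49.9 in control 2 and 129 to 179 in control 3, and for H2-Aa it was 5.77 to 20.7 and 60.2 to 95.9. Intervals of this kind cover counting error only.

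While the level of the class II genes moved 4.47-fold between mice, the level of Cd74 relative to the chain genes hardly did. The ratio of Cd74 to the sum of H2-Aa, H2-Ab1 and H2-Eb1, in normalized counts, was 0.756, 0.829 and 0.760 in control 1 to 3 and 0.733, 0.782 and 0.828 in p300-ifKO 1 to 3. It averaged 0.782 ± 0.0411 (SD, n = 3) in controls and 0.781 ± 0.0476 (SD, n = 3) in knockouts. The ratio of H2-Aa to H2-Ab1 was less steady, between 0.813 and 1.74.

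**Figure D1:**
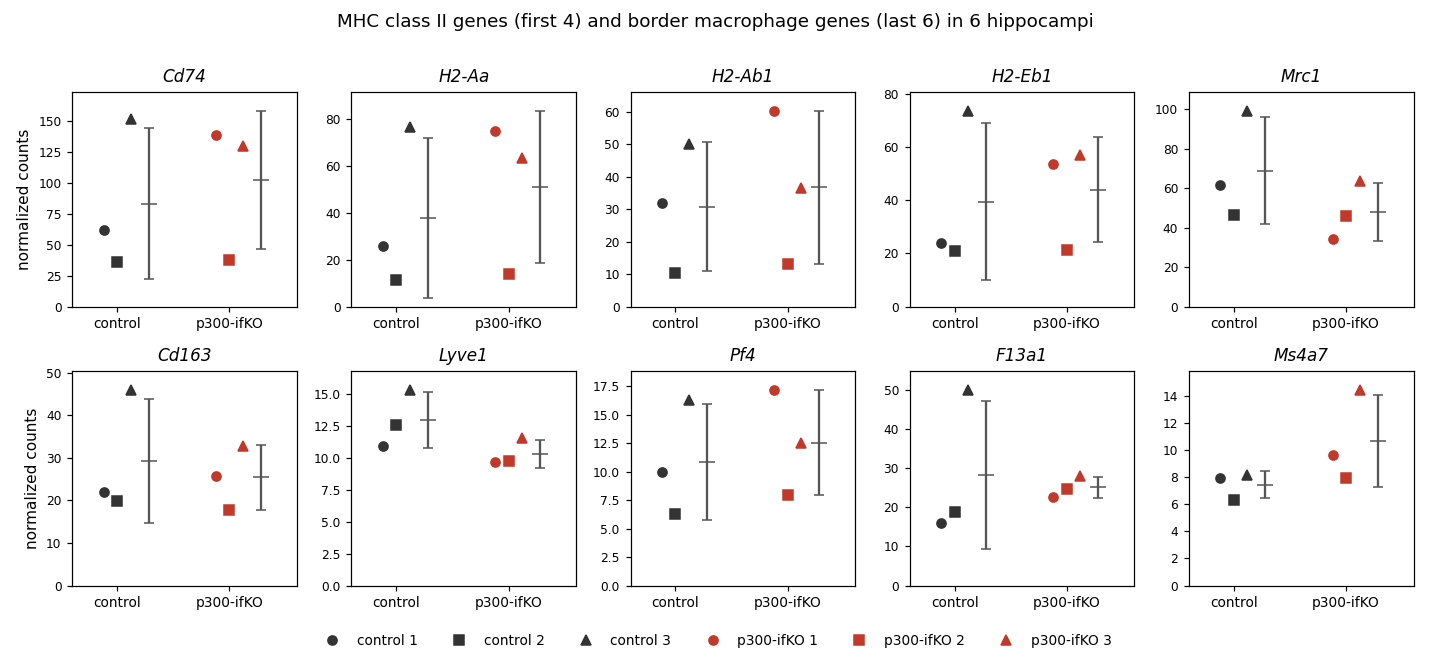
Normalized counts of the 10 genes in each mouse (vertical axes start at 0 and differ between panels), with control mice in dark grey and p300-ifKO mice in red, the replicate number as the symbol, and the mean ± SD of 3 mice beside the points. In the class II panels, Cd74 to H2-Eb1, control 3, p300-ifKO 1 and p300-ifKO 3 lie above the other mice, and the groups overlap in all 10 panels.

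The border macrophage genes varied less between mice. Mrc1, the mannose receptor, had 61.6, 46.2 and 99.0 normalized counts in control 1 to 3 and 34.4, 46.0 and 63.6 in p300-ifKO 1 to 3. The lowest mouse was p300-ifKO 1, which was among the highest for class II. Control mice averaged 69.0 ± 27.1 (SD, n = 3) and knockouts 48.0 ± 14.7 (SD, n = 3), and the log2 fold change of -0.52 (SE 0.38, 95% interval -1.27 to 0.23) had the smallest p of the 10 members, 0.174 before and 0.991 after adjustment in DESeq2. Cd163, the scavenger receptor for complexes of haemoglobin and haptoglobin, had 21.9, 20.0 and 45.9 normalized counts in the controls and 25.8, 17.7 and 32.8 in the knockouts. All p300-ifKO mice lay below control 3, and 2 of the 3 lay above control 1 and control 2. The log2 fold change of Cd163 was -0.21 (SE 0.48, 95% interval -1.15 to 0.74), and DESeq2 gave an unadjusted p of 0.669.

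Lyve1, a hyaluronan receptor of perivascular macrophages and of lymphatic endothelium, had 10.9, 12.6 and 15.3 normalized counts in control 1 to 3 and 9.67, 9.72 and 11.6 in p300-ifKO 1 to 3. Each of its 6 Poisson intervals overlapped the others, with bounds of 8.57 to 25.2 in the highest mouse and 4.42 to 18.3 in the lowest, so that no difference between mice was detectable at this depth. Its log2 fold change was -0.33 (SE 0.56, 95% interval -1.43 to 0.77), and DESeq2 gave an unadjusted p of 0.560. F13a1, the A subunit of coagulation factor XIII, had 15.9, 18.9 and 50.0 normalized counts in the controls and 22.6, 24.7 and 28 in the knockouts. The knockouts lay close together (25.1 ± 2.72, SD, n = 3) between the low and the high controls (28.3 ± 18.9, SD, n = 3). The log2 fold change of F13a1 was -0.17 (SE 0.52, 95% interval -1.18 to 0.84), and DESeq2 gave an unadjusted p of 0.740.

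Pf4, a chemokine stored in platelets and also made by border macrophages, had 9.94, 6.30 and 16.3 normalized counts in control 1 to 3 and 17.2, 7.95 and 12.5 in p300-ifKO 1 to 3. It was the only border macrophage gene that had p300-ifKO 1 as the highest mouse, and its order of mice was that of H2-Ab1. The log2 fold change was 0.20 (SE 0.63, 95% interval -1.04 to 1.44), and DESeq2 gave an unadjusted p of 0.754. Ms4a7, a membrane protein of the MS4A family found in border macrophages and not in resting microglia, had 7.95, 6.30 and 8.16 normalized counts in the controls and 9.67, 7.95 and 14.5 in the knockouts. It was the lowest of the 10 genes in count, and p300-ifKO 2 was level with control 1. Its log2 fold change of 0.51 (SE 0.65, 95% interval -0.76 to 1.79) was the most positive of the 10, and DESeq2 gave an unadjusted p of 0.430.

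Control 3 was the highest mouse in 4 of the 6 border macrophage genes, and control 3 and p300-ifKO 3 were among the highest 3 in 6 of 6. By contrast, p300-ifKO 1 was the lowest mouse in 2 of them, Mrc1 and Lyve1. The summed border macrophage level was 128, 110 and 235 normalized counts in control 1 to 3 and 119, 114 and 163 in p300-ifKO 1 to 3, a 2.13-fold range. The class II sum divided by this sum was 1.12, 0.714 and 1.50 in the controls and 2.75, 0.760 and 1.76 in the knockouts. This ratio of counts, which also depends on transcript lengths, was lowest in control 2 and p300-ifKO 2 and highest in p300-ifKO 1. The correlation with gene length was -0.5 in p300-ifKO 1 and 0.41 in p300-ifKO 2. Class II members have 1679 to 3798 exonic bases and border macrophage members 721 (Pf4) to 6739 (F13a1), with 6371 for Mrc1. The part of this length trend in the ratio and in the order of mice was not tested.

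By group, 4 of 4 class II genes had a positive log2 fold change, with a median of 0.27, and 2 of 6 border macrophage genes did, with a median of -0.19. Over all 32773 genes with a p the median was -0.046, with 14841 positive and 17932 negative, and over the 17070 genes with a mean of 10 or more normalized counts it was -0.0051. At an unadjusted p under 0.05 there were 0 of 10 members, against 1.32% of all genes (432 genes) in DESeq2, and the edgeR quasi-likelihood test also gave 0 members at an unadjusted p under 0.05. Groups without overlap were found for 0 of 10 members, against 6.64% of all genes (3.21% higher and 3.42% lower in p300-ifKO mice) and 7.46% of genes with a mean of 10 or more. The median of either group changed direction when 1 mouse was left out. For class II it was 1.02 without control 3, 0.67 without p300-ifKO 2, -0.11 without control 2 and -0.0019 without p300-ifKO 1, and for the border macrophage genes it was 0.41 without control 3.

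The plot of fold changes with 1 library left out shows how far single mice set these values. Without control 3, Cd74 had a log2 fold change of 1.07 with an unadjusted p of 0.0447 and H2-Aa one of 1.44 with an unadjusted p of 0.0365, and both adjusted values were 0.9996 in DESeq2. Only Mrc1, Lyve1 and Ms4a7 kept their sign in all 6 fits that left out 1 library. Mrc1 lay between -0.78 and -0.16 in these fits, Lyve1 between -0.43 and -0.19, and Ms4a7 between 0.23 and 0.70, and none passed the threshold where it had an adjusted p, which it lacked without p300-ifKO 2.

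**Figure D2:**
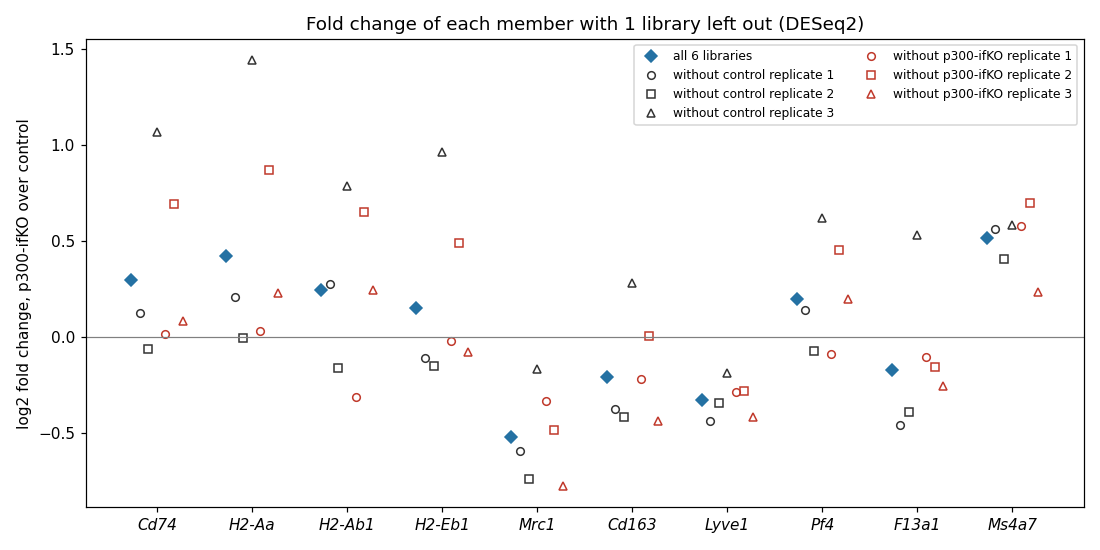
Log2 fold change (p300-ifKO over control, DESeq2) of each of the 10 genes with all 6 libraries (blue diamonds) and with 1 library left out (open symbols, dark grey for a control and red for a p300-ifKO library). Without control 3 the class II genes lie between 0.79 and 1.44, and without control 2 all 4 lie below 0.

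Between genes, levels can be compared only per length of transcript. As mean normalized counts per kb of exon over the 6 mice, with the range over mice, Cd74 was the highest at 55.2 (21.3 to 90.6), followed by H2-Eb1 at 21.4 (10.8 to 37.8) and Pf4 at 16.2 (8.74 to 23.8). H2-Ab1 followed at 13.1 (4.09 to 23.4), H2-Aa at 11.7 (3.04 to 20.2) and Mrc1 at 9.18 (5.39 to 15.5) per kb. The lowest were Cd163 at 5.01 (3.24 to 8.41), Lyve1 at 3.99 (3.31 to 5.24), F13a1 at 3.96 (2.36 to 7.42) and Ms4a7 at 2.04 (1.42 to 3.25) per kb. The ranges of each pair of neighbours in this order overlapped, but the genes share libraries, so this overlap does not give the order within a mouse. In every mouse Cd74 had more normalized counts than H2-Eb1 on fewer exonic bases (1679 against 1944), so it was the higher of the pair per kb.

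How unusual this spread was can be read against the 4818 genes with a mean of 10 to 100 normalized counts, in which the highest mouse exceeded the lowest by a median of 2.06-fold and, at the 90th percentile, by 4.40-fold. The class II genes spread 4.26-fold (Cd74), 6.62-fold (H2-Aa), 5.72-fold (H2-Ab1) and 3.50-fold (H2-Eb1), wider than 89.4%, 94.7%, 93.5% and 84.5% of those genes. F13a1 spread 3.14-fold, Mrc1 2.88-fold, Pf4 2.73-fold, Cd163 2.6-fold and Ms4a7 2.29-fold, wider than 60.6% to 80.2% of them. Lyve1, at 1.58-fold, spread more than only 20.1%. Ms4a7, with a mean under 10, is set here against genes of somewhat higher level.

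A list of class II processing and loading genes, which also held the chain genes H2-Eb2 and H2-Ea-ps, had another order of mice than the class II members. This group comprised H2-DMa, H2-DMb1, H2-DMb2, H2-Oa, H2-Ob, H2-Eb2, H2-Ea-ps, Ctss, Lgmn and Ifi30. Of these, 9 of the 10 had a positive log2 fold change, with a median of 0.45 and 0 past the adjusted threshold. Only 6 of the 10 had a mean of 10 or more. H2-Eb2 and H2-Ea-ps, with at most 1 read in any library, had the highest and the lowest value. Its sum was 5022, 4829 and 4196 normalized counts in control 1 to 3 and 6775, 5021 and 6129 in p300-ifKO 1 to 3, so that control 3, the highest mouse for class II, was the lowest here. Lgmn and Ctss made up 87.8% of this sum. For the other 8 genes together, control 3 was again the lowest mouse (498) and p300-ifKO 1 the highest (1014). Most of these counts came from H2-DMa, named after its values were seen, with 383 in control 3 and 803 in p300-ifKO 1. Ctss, the cathepsin that cuts the invariant chain, had 2046, 1838 and 1572 normalized counts in the controls and 2872, 2057 and 2720 in the knockouts. Each knockout lay above each control, and the log2 fold change was 0.49 (SE 0.18) and DESeq2 gave an adjusted p of 0.991 (0.0063 unadjusted). Ctss was the only gene of the group at an unadjusted p under 0.05 in the higher direction, in which 0.772% of all genes were found. Lgmn, another endosomal protease, had the smallest change of the 6 genes with a mean of 10 or more, 0.21 (unadjusted p of 0.112 in DESeq2). H2-Oa, named after its values were seen, was the other gene without overlap, with 4.08 to 7.35 normalized counts in control and 8.84 to 18.3 in p300-ifKO mice (log2 fold change 1.23, unadjusted p of 0.0757 in DESeq2).

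Among 10 transcription factors of the class II promoter and of its induction by interferon, 5 had a positive and 5 a negative log2 fold change, with a median of -0.0054 and 0 past the adjusted threshold. Rfx5, the DNA-binding subunit of RFX, had the most negative value of the group, -0.26 (unadjusted p of 0.338 in DESeq2). Ciita, the class II coactivator, named after its values were seen, had 24.9, 16.8 and 53.1 normalized counts in the controls and 16.1, 36.2 and 31.8 in the knockouts. Control 3 was the highest mouse for it too, but p300-ifKO 1, among the highest for class II, was the lowest for Ciita. Ciita has 9535 exonic bases, and the part of the length trend of p300-ifKO 1 in this order was not tested. The log2 fold change of Ciita was -0.17 (SE 0.53, unadjusted p of 0.754 in DESeq2).

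MHC class I genes, whose products present peptides from the cytosol on nearly all cells, had 9 of 9 positive log2 fold changes with a median of 0.45, and 0 of 9 passed the adjusted threshold. At an unadjusted p under 0.05 there were 4 of the 9, all higher, against 0.772% of all genes. These were H2-D1 at 0.75 (unadjusted p 0.00196), B2m at 0.55 (0.0100), H2-K1 at 0.58 (0.0142) and Psmb8 at 0.56 (0.0451) in DESeq2. H2-D1 and H2-K1 are heavy chains, B2m is their light chain and Psmb8 is a subunit of the immunoproteasome. The heavy chains have near-identical copies in the genome, and their counts are uncertain. The class I sum was 6110, 4679 and 4733 normalized counts in control 1 to 3 and 8640, 5558 and 8268 in p300-ifKO 1 to 3. Control 3 was thus near the bottom for class I and at the top for class II. Libraries p300-ifKO 1 and p300-ifKO 3 were also those with a negative correlation with gene length, and the 5 genes named from these lists with an unadjusted p under 0.05 were also read from a fit with a smooth length offset for each library. There the log2 fold changes were 0.35 for Ctss, 0.41 for B2m, 0.53 for H2-K1, 0.67 for H2-D1 and 0.54 for Psmb8, and all 5 kept an unadjusted p under 0.05 in DESeq2, between 0.00062 and 0.0424. With 1 surrogate variable they were between 0.23 and 0.46, and only Ctss (0.29, unadjusted p 0.00362 in DESeq2) kept one. None of the 5 passed the adjusted threshold in either fit. Without p300-ifKO 2, where 8.43% of the 11129 genes with an adjusted p passed (938 genes), Ctss (0.62, adjusted p 0.00853), B2m (0.72, adjusted p 0.00547), H2-K1 (0.77, adjusted p 0.0108) and H2-D1 (0.97, adjusted p 2.4e-05) passed the threshold in DESeq2. In that fit both knockouts had a negative correlation with gene length and all controls a positive one. The length trend and the genotype cannot be told apart there, and the length offset was not fitted without this library. In the same fit 0 of the 10 members had an adjusted p, because their counts were below the filter DESeq2 then chose, and 0 had an unadjusted p under 0.05.

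**Figure D3:**
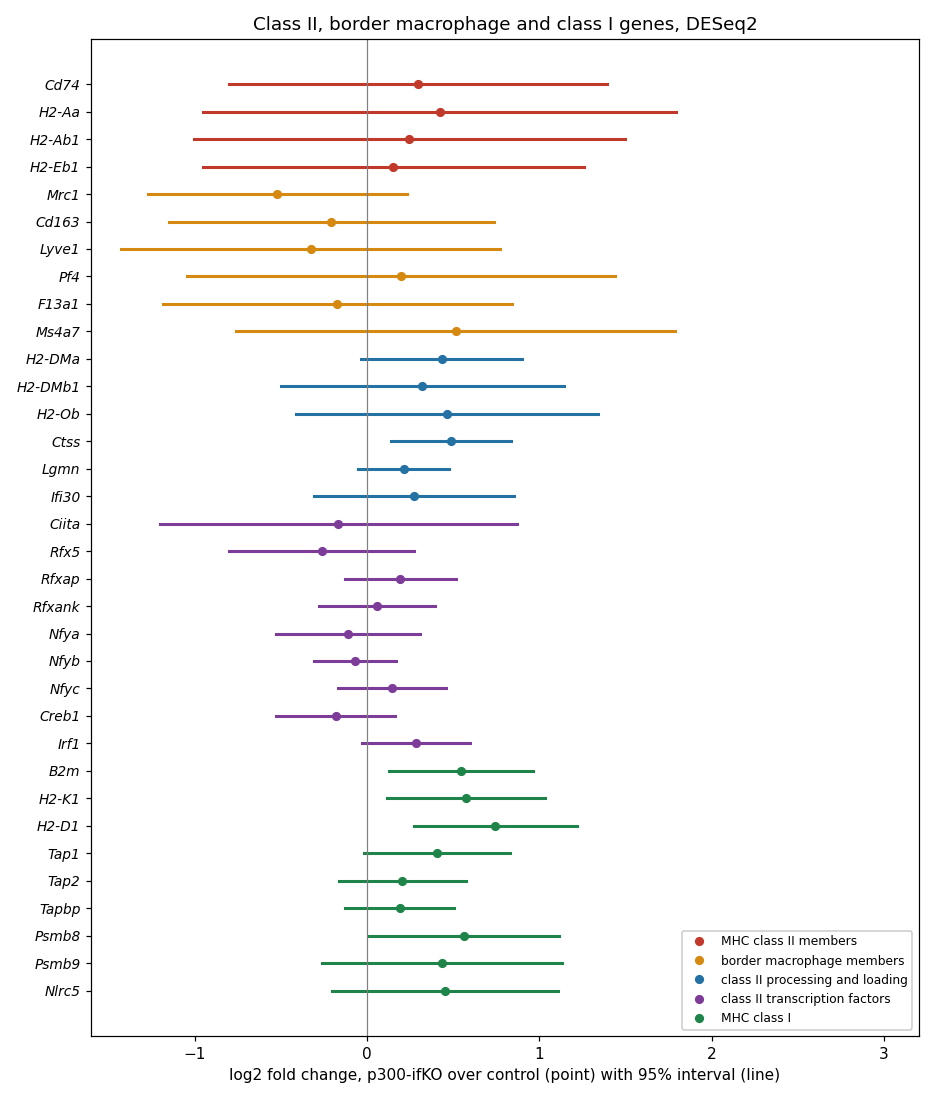
Log2 fold changes (p300-ifKO over control, points) with 95% intervals (lines) from DESeq2 for the 10 genes and for the class II loading genes, selected class II transcription factors and class I genes with a mean of 10 or more normalized counts. The interval of every class II and border macrophage gene includes 0, and those of Ctss, B2m, H2-K1, H2-D1 and Psmb8 lie above it.

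A further 10 border macrophage markers were read beside the 6 members. Of Cbr2, Stab1, Folr2, Clec10a, Cd209f, Cd209g, Fcna, Mgl2, Siglec1 and Dab2, 3 had a positive and 7 a negative log2 fold change, with a median of -0.28 and 0 at an unadjusted p under 0.05 in DESeq2. Their sum was 644, 617 and 927 normalized counts in control 1 to 3 and 507, 649 and 656 in p300-ifKO 1 to 3. Stab1 and Dab2 made up 93.1% of this sum, which was highest in control 3 and lowest in p300-ifKO 1. The other 8 genes summed to 38.8, 28.4 and 78.6 in control 1 to 3 and 45.1, 40.6 and 45.3 in p300-ifKO 1 to 3, and for them, as for the members, control 3 was the highest mouse, p300-ifKO 3 came next and control 2 was the lowest. Stab1, a scavenger receptor, had the most negative value of the 3 genes with a mean of 10 or more, -0.29 (unadjusted p of 0.132 in DESeq2), and Cbr2, a carbonyl reductase, the least negative, -0.053 (0.942).

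Microglia, the parenchymal macrophages, were much steadier between mice. The sum of 10 microglial markers was between 9343 and 10031 normalized counts in control and between 9687 and 10140 in p300-ifKO mice, a 1.09-fold range over the 6 mice, against 4.47-fold for class II. Single microglial markers spread more than their sum, 1.14-fold to 1.67-fold, against 3.50-fold to 6.62-fold for single class II genes. The median log2 fold change of these markers was 0.016, with 5 positive and 5 negative and 0 at an unadjusted p under 0.05. Tmem119 had the most positive value, 0.26, and Fcrls the most negative, -0.25.

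Markers of the tissues that house border macrophages, and of blood, also varied between libraries. Choroid plexus markers (92.3% of the sum from Ttr and Kl), all 8 of them with a positive log2 fold change and a median of 0.36, summed to 1303, 739 and 3845 normalized counts in control 1 to 3 and 1403, 1854 and 5535 in p300-ifKO 1 to 3. Ttr (transthyretin) ran from 118 to 2804 normalized counts in control and from 827 to 4488 in p300-ifKO mice (log2 fold change 0.80, unadjusted p of 0.534 in DESeq2), and Tmem72 had the smallest value, 0.014. Control 3 and p300-ifKO 3 were high for these markers and for the class II and border macrophage genes, whereas p300-ifKO 1 was high for class II but not for choroid plexus. Leptomeningeal fibroblast markers (71.5% of the sum from Dcn), 7 of 7 with a negative log2 fold change and a median of -0.42, summed to 3188, 2326 and 3913 in the controls and 1662, 2263 and 2692 in the knockouts. For this sum the lowest mouse was p300-ifKO 1, as for Mrc1 and Lyve1. The other 5 genes, without Dcn and Col1a2, had 519, 401 and 915 in the controls and 412, 430 and 532 in the knockouts. For them control 3 was the highest mouse, p300-ifKO 3 came next and control 2 was the lowest. Of the 6 fibroblast markers with a mean of 10 or more, Dcn, the proteoglycan decorin, was the most negative at -0.56 (unadjusted p of 0.0192 in DESeq2). Slc22a6 was the least negative at -0.31. Lower values at an unadjusted p under 0.05 were found for 0.546% of all genes. Of the lymphatic endothelial markers, 3 of 3 with a p were negative, with a median of -0.24, between -0.33 for Reln and -0.12 for Flt4, and the chemokine Ccl21a was at 0 in all 6 libraries. Prox1 and Reln made up 98.1% of the sum of this list, and hippocampal neurons express both, so the sum does not describe lymphatic endothelium.

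Red cell markers summed to 2167, 2120 and 4064 normalized counts in control 1 to 3 and 3579, 1431 and 2292 in p300-ifKO 1 to 3. The 3 highest mice were control 3, p300-ifKO 1 and p300-ifKO 3, the same as for class II. However, p300-ifKO 3 (2292) lay close to control 1 (2167), whereas for class II these mice had 287 and 143. Hbb-bs made up 64.8% of the red cell sum. For Hbb-bs, Hba-a1 and Alas2 p300-ifKO 3 lay above control 1 and control 2, for Hba-a2 between them and for Hbb-bt below both. Alas2, which is not a globin gene, had 67.6, 58.8 and 123 in the controls and 88.1, 53.0 and 80.0 in the knockouts. Alas2 and Hba-a2 are named after their values were seen. All 5 red cell markers had a negative log2 fold change, with a median of -0.18, from -0.34 for Hbb-bt to -0.15 for Hba-a1, and the globin genes have near-identical copies that make their counts uncertain. Platelet markers, which bear on Pf4, summed to 90.4 to 112 in control and 99.0 to 133 in p300-ifKO mice, with a median log2 fold change of 0.12, 0.27 for Itga2b and 0.040 for Gp1ba. The highest mouse was p300-ifKO 1, as for Pf4. Itga2b and Gp1ba made up 75.2% of the platelet sum, and Itga2b was highest in p300-ifKO 1 but Gp1ba in control 1. Monocyte and neutrophil markers summed to 10.5 to 30.6 in control and 24.7 to 47.3 in p300-ifKO mice, with a median of 0.59, S100a9 at 0.98 (unadjusted p of 0.140 in DESeq2) and Ly6g at 0 in all 6 libraries.

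Other cells that carry class II are dendritic cells and B cells. Dendritic cell markers summed to 621 to 656 normalized counts in control and 571 to 704 in p300-ifKO mice, with a median log2 fold change of -0.26, Itgax at 0.42 and Clec9a at -0.33. Flt3 and Zbtb46 made up 94% of that sum, and the other 5 markers together had 33.7 to 43.7 in control and 31.8 to 38.7 in p300-ifKO mice. B cell markers summed to 16.9 to 27.6 and 16.8 to 29.9, with a median of 0.31 and no marker at a mean of 10. Neither sum separated the groups. Endothelial markers summed to 3969 to 4351 and 3917 to 4112, with a median of -0.16, from -0.32 for Kdr to 0.35 for Cldn5. Excitatory neuron markers, of the tissue named by the labels, summed to 156308 to 181827 and 165569 to 182407, with a median of 0.033 and Neurod2 at 0.33 (unadjusted p of 0.0142 in DESeq2). In each of these lists 0 genes passed the adjusted threshold. The part of choroid plexus, meningeal or blood content in the class II and border macrophage values was not tested.

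**Figure D4:**
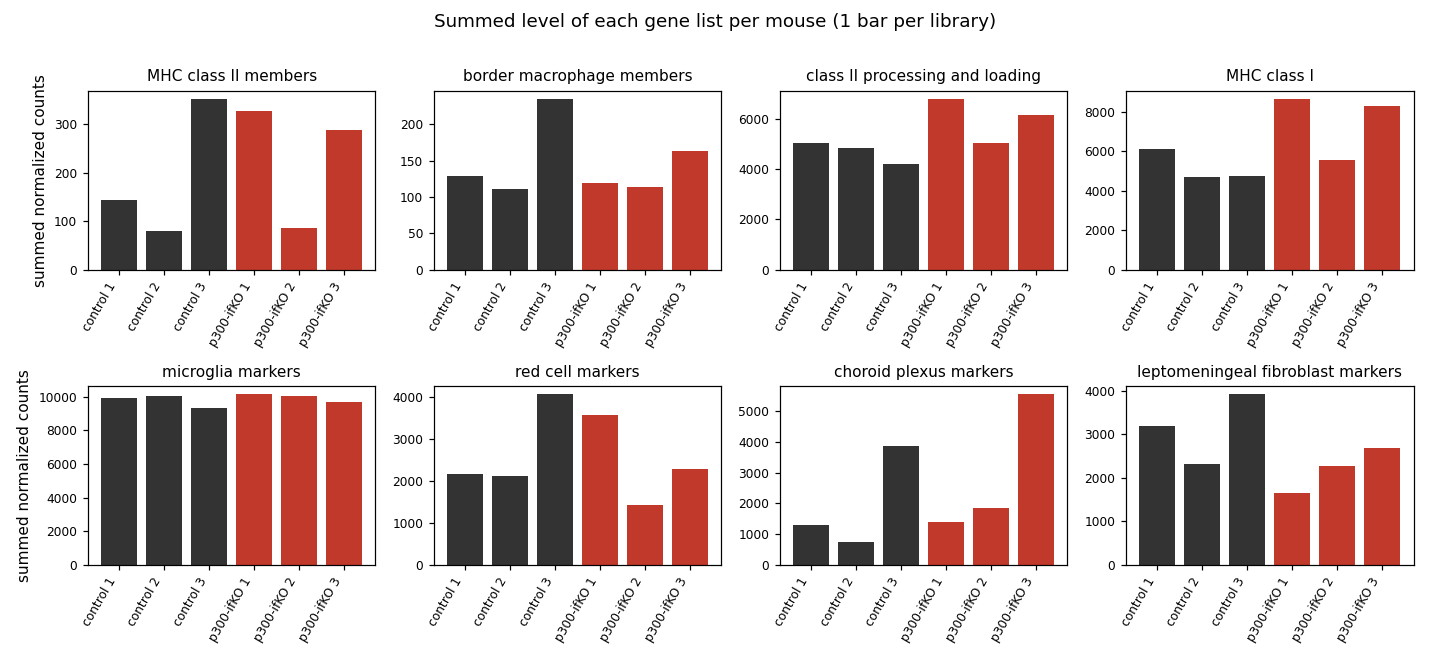
Summed normalized counts of 8 gene lists in each of the 6 mice (1 bar per library, dark grey for control, red for p300-ifKO, axes from 0 and different in each panel). The class II sum runs from 78.8 to 352 with control 3, p300-ifKO 1 and p300-ifKO 3 at the top, while the microglial sum stays between 9343 and 10140.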

How the data were processed

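The authors sequenced 50-base single-end reads from total RNA of 6 hippocampi. Per the labels and methods, reads were trimmed (Trim Galore, version 0.6.4), aligned to GRCm38 with STAR (version 2.6.1), filtered for a mapping quality above 10 and counted on Ensembl exons with Rsubread; the version of Rsubread and the strand setting were not given in the sources used here. The deposited values are raw counts per gene. The quality filter lowers genes with near-identical copies. Among the 10 genes, at most 0.514% of exonic 50-base stretches recurred elsewhere, and at most 1.1% of exonic bases overlapped another gene (F13a1, on the opposite strand).

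Symbols from GENCODE M21 matched 55144 genes (99.41%). Counts were compared in R 4.3.3 with DESeq2 1.42.0 (the authors used 1.30.1): median-of-ratios size factors, a two-sided Wald test without covariate, Benjamini-Hochberg over 32773 genes, threshold 0.05, mean ± SD over 3 mice. Alternatives used edgeR 4.0.16, limma 3.58.1, sva 3.50.0 and mgcv 1.9.3, and the fits were tested on simulated data. The members and the 15 other lists were chosen with earlier results of these data known, so that lists were described by counts and medians only. Named from each list were genes with an unadjusted p under 0.05, those with the highest and lowest change at a mean of 10 or more, and markers at 0; some genes of these lists that the rule names are counted in their list and not reported here. Each library came from a different mouse, and for the 15 pairs of libraries the chi-square of counts per degree of freedom was between 4.40 and 84.5. Between controls and knockouts of the same replicate number, the deviations from the group mean correlated at 0.26, -0.26 and 0.18. The column names carry matching mouse numbers in both groups. With 3 mice a group these correlations cannot decide whether the mice were paired, and the main comparison was unpaired. No sample was left out of the main comparison.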

Additional observations from a re-analysis of the deposited data

How the results depend on the processing

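The number of the 10 genes past the threshold was 0 under all 10 alternatives with all libraries, at a threshold of 0.1 and in the 6 fits that left out 1 library. These were the edgeR quasi-likelihood test with and without a filter, limma-voom, TMM factors, a minimum of 10 counts in 3 libraries, Cook or independent filtering off, 1 surrogate variable, a smooth exonic length offset and a replicate block. Of 157 fold changes of a member, 147 had an adjusted p, the smallest 0.745. Without p300-ifKO 2 no member had one, so the count of members there could only be 0. In the fits of all libraries, 2 to 4 genes of the whole table were called. The edgeR filter, which limma-voom shared, and the count minimum each removed Ms4a7. With all libraries, 4 fold changes turned sign: F13a1 to 0.024 in limma-voom, and with 1 surrogate variable H2-Ab1 to -0.37, Pf4 to -0.012 and F13a1 to 0.22. The class II median was 0.055 and the border macrophage median -0.054 in that fit, and with the length offset they were 0.14 and -0.092. The cause was not tested.

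Leaving out each library in turn gave 13 further turns of sign. The ranges were -0.063 to 1.07 for Cd74, -0.0069 to 1.44 for H2-Aa, -0.31 to 0.79 for H2-Ab1 and -0.15 to 0.97 for H2-Eb1, and -0.43 to 0.28 for Cd163, -0.089 to 0.62 for Pf4 and -0.46 to 0.53 for F13a1. The class II median ranged from -0.11 to 1.02 and the border macrophage median from -0.41 to 0.41. The number of all genes called ranged from 2 to 938, the highest without p300-ifKO 2 (493 higher, 445 lower), where the 10 members had no adjusted p.

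With the replicate number as a block, 4 genes of the table were called in place of 2, 0 of them members, with medians of 0.30 for class II and -0.078 for border macrophage genes. With 1 surrogate variable 3 genes were called, 2 higher and 1 lower. With 6 to 149 reads per library and 3 mice a group, the intervals of the members reached from 0.372-fold (Lyve1) to 3.47-fold (H2-Aa). For class II genes the spread between mice exceeded counting error, whereas for Lyve1 the Poisson intervals of all mice overlapped. The part of depth in the width of these intervals was not tested.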
